A study of Mus musculus with 4 samples.

Results

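Mammary fibroblasts that had lost *Ets2* next to an *ErbB2* epithelium were compared with normal mammary fibroblasts that kept *Ets2*, 1 Affymetrix mouse genome array on each side. These are 2 of the 4 arrays of the experiment, taken by their genotype labels, and the difference was formed over every probe set that carries exactly 1 gene symbol. The other arrays, normal *Ets2* null fibroblasts and *ErbB2* tumor fibroblasts with *Ets2*, stand beside them, so that the level of each gene can be compared between the genotypes. The genotypes are separate mice, and no culture was followed over time. Words such as stayed, passed or went from compare arrays and describe no course. The question is which genes of the tumor stroma were also away from normal in tumor fibroblasts without *Ets2*, which were near normal, and which lay past it.

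All 4 cultures came from 16-week-old female FVB/N mice with the genotype *Ets2* db/loxP, in which 1 copy of *Ets2* is a knockout allele and the other can be removed by Cre. The normal fibroblasts therefore carried a single working copy. The *Ets2* null fibroblasts came from mice that also carried *Fsp-Cre*, a Cre recombinase under a promoter meant to be active in fibroblasts, and the tumor fibroblasts from mice with the *MMTV-ErbB2* oncogene in the epithelium, whose glands were collected before tumors could be felt. The full genotypes compared were thus *ErbB2*;*Fsp-Cre*;*Ets2* db/loxP and *Ets2* db/loxP. They differ in the oncogene and in the deletion at once, and a difference between them cannot be told apart into these parts without the other arrays. RNA was taken from second-passage cultures, and each array is 1 culture, so a difference is given by its size, with no test and no error. Cells of other kinds that survive in such a culture also give RNA, and on a bulk array fewer cells of a type and less RNA per cell cannot be told apart.

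ETS2 is a transcription factor of the ETS family, which binds DNA at a GGAA core and is switched on by Ras and MAP kinase signaling, downstream of receptors such as ERBB2. In stroma it often works beside AP-1 factors at genes for matrix-degrading proteases. Activated fibroblasts of a tumor lay down and cut the extracellular matrix (ECM), contract it, and release chemokines and growth factors that reach epithelial, immune and blood vessel cells.

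Values are log2 levels made by RMA, and a difference of 1 is 2-fold. The 34958 singly named probe sets covered 18194 genes, and a gene is represented by its probe set with the brightest average unless stated. The arrays had nearly equal medians, 5.51 to 5.54, and 42.5% to 42.8% of probe sets reached log2 6, below which a level was not taken as above background. Folds are therefore given only where both levels reach 6. Over genes, tumor *Ets2* null minus normal had a median of 0.02, quartiles of -0.14 and 0.17, and a robust SD of 0.229. The cultures read as fibroblasts on all arrays, with 30 or 31 of 35 fibroblast identity genes at log2 6 or more, and the summed linear level of that list was 167486 in normal and 168135 in tumor *Ets2* null fibroblasts. The *Ets2* probe sets gave no check of the deletion. The brightest read 8.14 in normal, 8.35 in normal *Ets2* null, 8.34 in tumor and 8.31 in tumor *Ets2* null fibroblasts, and which part of the transcript it reads was not tested.

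Tumor fibroblasts without *Ets2* differed from normal fibroblasts mostly by genes at lower levels, led by chemokines, a macrophage metalloproteinase, myeloid lectins and contractile proteins of muscle. A total of 11 genes differed by more than 4-fold on at least 1 probe set. Of these, 3 were higher in tumor *Ets2* null fibroblasts, 0.0165% of all genes, and 8 were lower, 0.044%. On the brightest probe set, 28 genes lay over 2-fold above normal (0.154%) and 95 over 2-fold below it (0.522%). Against the same normal array, 24 genes passed 4-fold on the tumor array with *Ets2* and 22 on the normal *Ets2* null array.

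The lowest gene was *Cxcl12*, the chemokine that draws CXCR4-bearing leukocytes and tumor cells. Its level was 10.91 in normal, 9.15 in normal *Ets2* null, 10.49 in tumor and 7.69 in tumor *Ets2* null fibroblasts. It was thus 9.34-fold lower than normal in the last, lower without *Ets2* in both settings, and close to normal in tumor fibroblasts with *Ets2*. The probe sets of *Cxcl12* were not uniform, as 2 of 3 were more than 2-fold lower and the remaining one differed by 0.01. *Ccl6*, a chemokine of the CC class made largely by myeloid cells, read 11.37, 10.56, 11.32 and 8.50 in the same order of arrays, and both of its probe sets were lower, by up to 7.58-fold. *Mmp12*, macrophage elastase, read 10.46, 10.37, 11.61 and 7.87. *Mmp12* was thus 6.03-fold below normal in tumor *Ets2* null fibroblasts, although it was above normal in tumor fibroblasts with *Ets2* and level with normal in the normal *Ets2* null array.

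The receptors *Clec7a*, which senses fungal glucans, and *Clec4n*, another C-type lectin of myeloid cells, were low in tumor *Ets2* null fibroblasts alone among the arrays. *Clec7a* read 8.82 in normal, 8.62 in normal *Ets2* null, 8.83 in tumor and 6.37 in tumor *Ets2* null fibroblasts, a 5.46-fold difference from normal. *Clec4n* read 7.76, 7.36, 8.01 and 5.94. *Tslp*, an epithelial-type cytokine that acts on dendritic cells, read 6.47, 8.20, 9.87 and 4.22, so its lowest level was in tumor *Ets2* null fibroblasts and its highest in tumor fibroblasts with *Ets2*. Other secreted proteins among the 20 lowest genes were *Ntn4*, a netrin of basement membranes, at -1.99 and just short of 4-fold, *Ereg*, the EGF receptor ligand epiregulin, which was 3.37-fold lower, and *Slpi*, a secreted inhibitor of leukocyte elastase, which was 3.14-fold lower.

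Contractile genes of striated muscle made up 6 of the 20 lowest genes. *Myl1* and *Mylpf*, light chains of fast muscle myosin, stood at -2.45 and -2.31 from normal in tumor *Ets2* null fibroblasts. *Myl1* read 7.88, 6.22, 8.23 and 5.43, and *Mylpf* read 7.61, 6.07, 8.34 and 5.30, so both were low in the *Ets2* null arrays and at or above normal in tumor fibroblasts with *Ets2*. The cardiac actin *Actc1*, the troponins *Tnni1* and *Tnnc1* and the embryonic myosin *Myh3* followed at -1.93, -1.86, -1.68 and -1.83. Markers of vessel lining cells were also among the 20 lowest. *Emcn*, a sialomucin of endothelium, read 7.85 in normal fibroblasts and 5.99 in tumor *Ets2* null fibroblasts, and *Plvap*, the diaphragm protein of fenestrated endothelium, read 8.40 and 6.67. The last of the 20 were *Syt13*, an atypical synaptotagmin, at -1.94, *Wfdc17*, a small secreted WAP-domain protein of myeloid cells, at -1.66, and *Lmcd1*, a LIM-domain cofactor, at -1.62. On the other arrays the same 20 genes had medians of 0.22 for the tumor with *Ets2* and -0.83 for normal *Ets2* null fibroblasts. On the latter 8 lay over 2-fold below normal and 3 over 2-fold above it, beside 65 and 113 of all 18194 genes. These differences use the same normal array as the ranking, where a high reading lowers them all.

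At the high end, *S100a3*, a small calcium-binding protein, read 6.38 in normal, 9.83 in normal *Ets2* null, 5.21 in tumor and 9.68 in tumor *Ets2* null fibroblasts. It was 9.84-fold above normal in tumor *Ets2* null fibroblasts and high in both arrays that carry *Fsp-Cre*. *Fsp* is the name used for *S100a4*, whose gene is the neighbour of *S100a3* in the GRCm38.p6 annotation, and the transgene and the loss of *Ets2* cannot be told apart here. *Gt(ROSA)26Sor*, the transcript of the Rosa26 locus, read 3.09, 3.35, 2.95 and 6.23. A reporter at this locus was bred into some mice of the study, the labels do not say which, and its presence cannot be told apart from a change in expression.

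Of the other high genes, *Ptn*, the heparin-binding growth factor pleiotrophin, read 5.36, 5.43, 5.44 and 7.34, with 2 of its 3 probe sets more than 2-fold higher and its dimmer probe set past 4-fold at 2.10. *Aspn*, a small leucine-rich proteoglycan that binds collagen and TGF-beta, read 7.65, 7.19, 7.72 and 9.38, a 3.32-fold difference from normal, and both of its probe sets were more than 2-fold higher. *Ptn* and *Aspn* were thus near normal on 3 arrays and high on that of tumor *Ets2* null fibroblasts. *Cyp7b1*, an oxysterol hydroxylase, was 3.08-fold higher, *C1qtnf3*, a secreted adipokine-like protein, 3.04-fold higher and *Kcne4*, a potassium channel subunit, 2.94-fold higher. The lowest probe set of *Cyp7b1* stood at -0.18. *Il33*, an alarmin cytokine, read 5.15, 4.05, 4.76 and 6.68 and *Scg2*, a secretory granule protein, read 5.09, 4.47, 5.06 and 6.71, so that of the 4 arrays tumor *Ets2* null fibroblasts were the only one above log2 6 for either gene. Apart from *Lrrc17* at 1.88, described further on, the remaining high genes were at 1.08 to 1.39, among them the endothelial lectin *Clec14a* at 1.39, the protease inhibitor *Serpinb1a* at 1.09, *Pik3ip1*, an inhibitor of PI3 kinase, at 1.18, *Itgbl1*, an integrin-like secreted protein, at 1.11, and *Plaat3*, a phospholipase of adipose tissue, at 1.08. Of the 20 highest genes, 13 were within 0.5 of normal in tumor fibroblasts with *Ets2*. All genes had quartiles of -0.16 and 0.13 on that array, so most genes lie in this band and the count marks nothing particular to the 20.

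**Figure D1:**
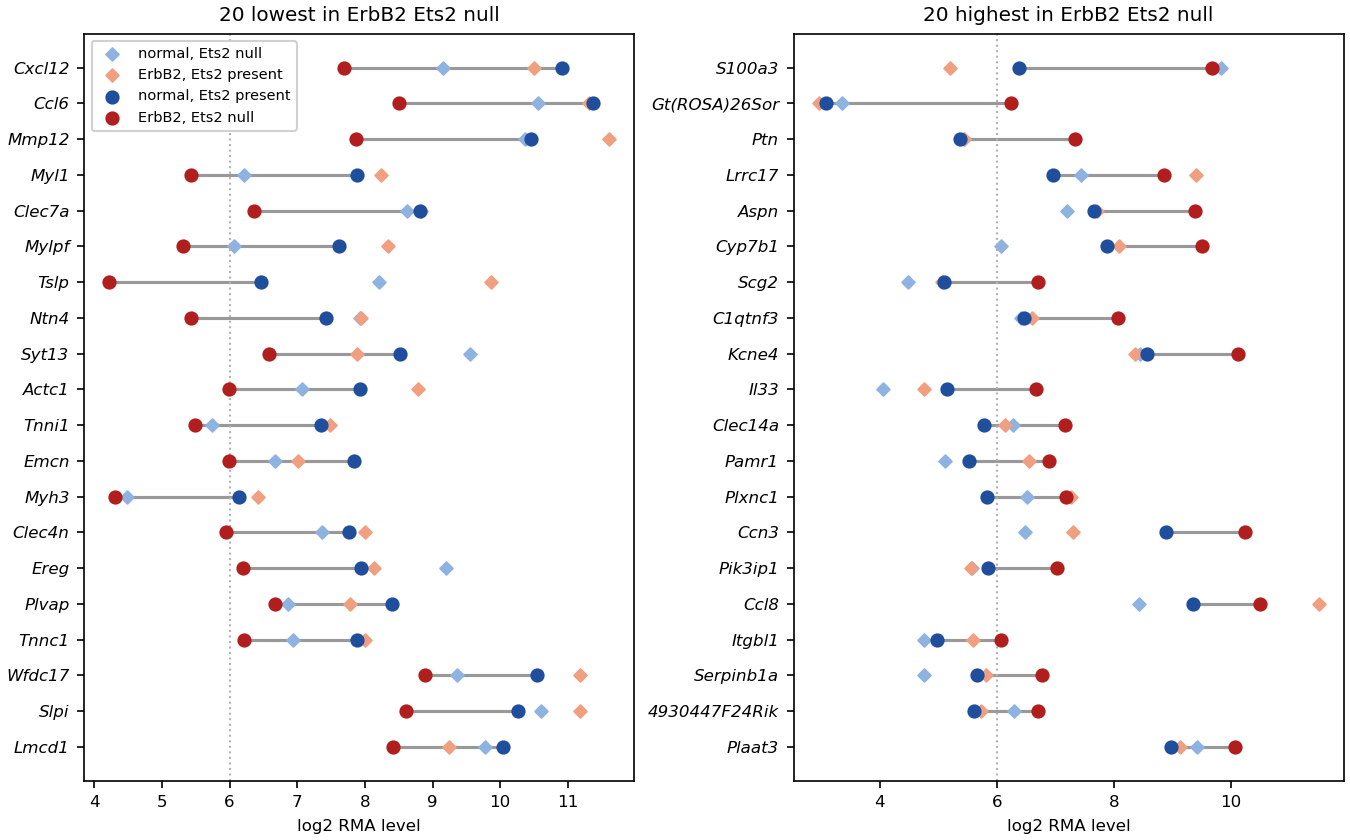
Log2 RMA level (x axis) of the 20 lowest and the 20 highest genes of tumor *Ets2* null fibroblasts against normal fibroblasts, 1 array per point, with the difference drawn as a grey bar and log2 6 as a dotted line. *Cxcl12* runs from 10.91 in normal down to 7.69 in tumor *Ets2* null fibroblasts, and *S100a3* from 6.38 up to 9.68.

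Since ETS2 binds DNA at a GGAA core, the 250 bases before the start of the lowest and highest genes with a single listed start are shown, in GRCm38.p6 from RefSeq and 5′ to 3′ on the strand of the gene. Capitals mark matches on either strand to AGGAAG, a hexamer bound by many ETS factors, to the related hexamer CCGGAA, or to the AP-1 heptamer TGANTCA, which reads the same on both strands. Both hexamers hold the ETS core after a different base, so at one position and strand a site can match only 1 of them. *Cxcl12* lies at chr6:117168285-117168534 on the plus strand, *Ccl6* at chr11:83593088-83593337 on the minus strand, *Ptn* at chr6:36810180-36810429 on the minus strand and *Lrrc17* at chr5:21543277-21543526 on the plus strand.
*Cxcl12*: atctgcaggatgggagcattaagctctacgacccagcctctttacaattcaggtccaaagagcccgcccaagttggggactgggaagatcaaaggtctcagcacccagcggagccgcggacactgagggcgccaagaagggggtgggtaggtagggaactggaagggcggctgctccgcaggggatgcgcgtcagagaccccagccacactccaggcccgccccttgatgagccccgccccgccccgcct
*Ccl6*: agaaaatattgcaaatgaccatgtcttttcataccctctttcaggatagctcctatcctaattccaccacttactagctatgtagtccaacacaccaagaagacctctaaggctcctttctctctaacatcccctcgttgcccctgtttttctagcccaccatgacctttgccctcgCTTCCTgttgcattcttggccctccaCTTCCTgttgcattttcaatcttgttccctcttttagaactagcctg
*Ptn*: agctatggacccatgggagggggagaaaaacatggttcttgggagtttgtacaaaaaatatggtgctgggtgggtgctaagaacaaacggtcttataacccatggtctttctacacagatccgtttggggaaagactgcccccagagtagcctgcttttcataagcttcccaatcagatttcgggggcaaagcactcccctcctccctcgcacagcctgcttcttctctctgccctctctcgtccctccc
*Lrrc17*: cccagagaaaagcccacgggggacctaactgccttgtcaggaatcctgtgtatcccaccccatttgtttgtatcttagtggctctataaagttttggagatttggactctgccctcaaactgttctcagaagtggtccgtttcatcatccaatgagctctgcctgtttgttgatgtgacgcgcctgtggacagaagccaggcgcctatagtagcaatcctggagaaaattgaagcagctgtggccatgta
The *Ccl6* window held 2 matches to AGGAAG, starting at -73 and -47 from the start of the gene, and the other 3 windows held no match to the motifs searched. The bare GGAA core, which was not searched for, does occur in each of those 3 windows. In the RefSeq table, 29.5% of 32851 such windows held AGGAAG, against 9 of 18 windows of the lowest genes and 5 of 21 of the highest, 15 genes at each end having a listed window. CCGGAA was in 12% of all windows and in 1 window at each end, and TGANTCA in 6.75%, in 1 window of the lowest and 2 of the highest genes. These are letter counts over a few windows, and binding was not measured.

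The tumor-stroma genes were taken as those more than 2-fold away from normal in tumor fibroblasts with *Ets2*, with log2 6 reached on at least 1 of the 3 arrays, and were sorted by where tumor *Ets2* null fibroblasts stood. Of 10837 genes at that level, 139 were higher in tumor fibroblasts (1.28%) and 27 lower (0.249%). Among the 139 higher genes, 87 were within 0.5 of normal in tumor *Ets2* null fibroblasts, 12 lay part of the way (0.5 to 1 above normal) and 5 stayed more than 2-fold above it. A further 26 were slightly past normal (0.5 to 1 below) and 9 were more than 2-fold below it. Near normal thus held 62.6% of the 139, beside 92.4% of all 10837 genes, of which 0.231% were more than 2-fold above normal in tumor *Ets2* null fibroblasts and 0.83% below it. Of the 27 lower genes, 15 were near normal, 4 lay part of the way, 4 stayed more than 2-fold below, 2 were slightly above and 2 more than 2-fold above normal. The median of the 139 was 1.28 above normal in tumor fibroblasts and -0.19 in tumor *Ets2* null fibroblasts, and that of the 27 was -1.15 and -0.22. Both differences use the same normal array, where a low reading of a gene raises both, so the counts describe these arrays and no relation is read from them.

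**Figure D2:**
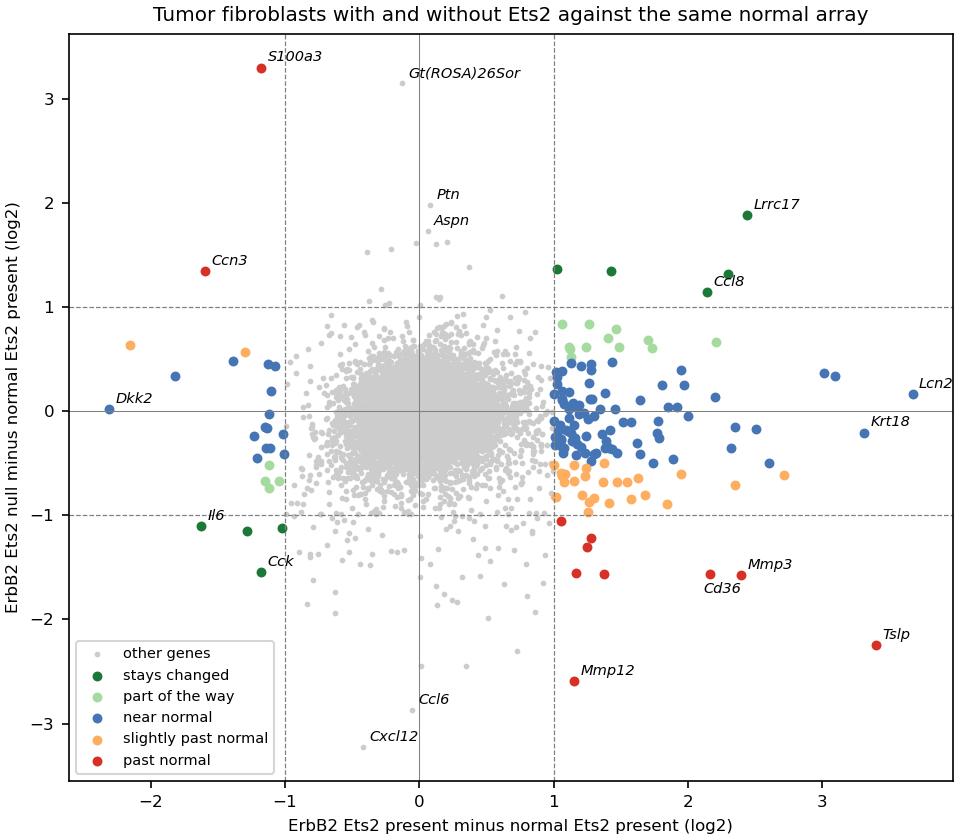
Log2 difference from normal fibroblasts in tumor fibroblasts with *Ets2* (x axis) and in tumor *Ets2* null fibroblasts (y axis), 1 point per gene, with dashed lines at 2-fold and the tumor-stroma genes colored by where they stood without *Ets2*. Most of the 139 genes on the right lie near 0 on the y axis, *Lrrc17* stays high at 1.88, and *Mmp12* and *Tslp* lie lowest on the right at -2.59 and -2.25.

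The 5 genes that stayed high in tumor fibroblasts without *Ets2* were *Lrrc17*, *F13a1*, *Ccl8*, *Plxnc1* and *Pamr1*. *Lrrc17*, a secreted leucine-rich repeat protein that acts on osteoclasts, was 2.44 above normal in tumor fibroblasts and 1.88 above it in tumor *Ets2* null fibroblasts, where it read 8.85 against 6.96 in normal and 7.43 in normal *Ets2* null fibroblasts. Only 1 of its 2 probe sets was higher in tumor *Ets2* null fibroblasts, as the dimmer one stood at -0.16. *Ccl8*, a chemokine for monocytes and other leukocytes, read 9.35, 8.43, 11.50 and 10.49. On the brightest probe set, *Lrrc17* and *Ccl8* were thus high with the oncogene whether or not *Ets2* was present. *F13a1*, the clotting transglutaminase of macrophages and platelets, read 4.39, 4.96, 6.69 and 5.71. *Plxnc1*, a semaphorin receptor, read 5.84, 6.52, 7.27 and 7.19, with 3 of its 6 probe sets more than 2-fold higher. *Pamr1*, a protein linked to muscle regeneration, read 5.52, 5.11, 6.54 and 6.89 and was the one of the 5 with its highest level in tumor *Ets2* null fibroblasts rather than in tumor fibroblasts with *Ets2*. The normal levels of *F13a1*, *Plxnc1* and *Pamr1* were under log2 6.

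The 12 genes that lay part of the way included matrix genes and differentiation genes of mesenchyme. *Lum*, the collagen-binding proteoglycan lumican, was 1.70 above normal in tumor fibroblasts and 0.68 above it in tumor *Ets2* null fibroblasts, with levels of 7.77, 6.71, 9.47 and 8.45. *Fgf21*, a metabolic hormone of the FGF family, went from 1.73 to 0.61, *Folr2*, a folate receptor of macrophages, from 2.21 to 0.67, and *Abi3bp*, a matrix protein, from 1.49 to 0.62. *Lrrc15*, a membrane protein of TGF-beta-activated fibroblasts, went from 1.40 to 0.70. *Pparg*, the master regulator of fat cell differentiation, read 7.74, 9.53, 9.20 and 8.53, and so was above normal on all 3 other arrays and highest in normal *Ets2* null fibroblasts.

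Secreted and epithelial-type genes led the 87 that were near normal without *Ets2*. *Lcn2*, the iron-carrier-binding lipocalin, read 3.50 in normal, 3.61 in normal *Ets2* null, 7.18 in tumor and 3.67 in tumor *Ets2* null fibroblasts. *Mmp13*, a collagenase, read 5.42, 5.56, 8.44 and 5.79, and *Wfdc18*, a WAP-domain protein of mammary epithelium, read 5.27, 5.94, 8.37 and 5.61. *Lcn2*, *Mmp13* and *Wfdc18* were above log2 6 in tumor fibroblasts with *Ets2* alone. The keratins of simple epithelium, *Krt18* and *Krt8*, ran differently. *Krt18* read 5.21, 8.78, 8.52 and 5.01 and *Krt8* read 6.65, 9.73, 9.25 and 6.15, so they were also high in normal *Ets2* null fibroblasts. *Serpinb2*, the plasminogen activator inhibitor PAI-2, had that pattern too, at 3.60, 5.84, 6.11 and 3.43. *Pf4*, a platelet chemokine that inhibits angiogenesis, went from 2.32 above normal to -0.35, and *Saa3*, an acute-phase protein, from 1.74 to -0.50. *Lcp1*, an actin bundler of leukocytes, went from 1.38 to -0.50, a value just past the near-normal band.

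Markers of other cell types made up part of these 139 genes. Lists of such markers held 35 of them, most of them of macrophages and other myeloid cells, and among the 87 near-normal genes 13 were on the myeloid and 5 on the luminal epithelial list. The 35 had a median difference of -0.40 from normal in tumor *Ets2* null fibroblasts, and the 104 on no such list had -0.13. Without those markers, the near-normal count was 68, the stayed count 5 and the count past normal 6. The lists do not hold every gene of such cells, so these counts are not free of them. *F13a1*, *Folr2* and *Mmp12*, described here as macrophage genes, are on none of the lists. The 4-fold counts without them were 3 higher and 6 lower genes. The 6 still held *Ccl6*, *Mmp12* and the muscle genes *Myl1* and *Mylpf*, as the skeletal muscle list was not among those left out.

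The 9 genes that lay above normal in tumor fibroblasts with *Ets2* and below it in those without were a cytokine, proteases, a lipase and genes of matrix, lipid uptake and vessels. *Tslp* went from 3.40 above normal in tumor fibroblasts to -2.25 in tumor *Ets2* null fibroblasts. *Mmp3*, the metalloproteinase stromelysin-1, read 9.87, 8.02, 12.26 and 8.29, from 2.40 above normal to -1.57, and was also low in normal *Ets2* null fibroblasts. *Mmp12* went from 1.15 to -2.59, and *Ctss*, the lysosomal protease cathepsin S of antigen-presenting cells, from 1.28 to -1.22. *Cd36*, a receptor for fatty acids and thrombospondin, read 8.45, 8.64, 10.61 and 6.88, and 2 of its 3 probe sets were more than 2-fold below normal. *Prg4*, the lubricating proteoglycan lubricin, went from 1.37 to -1.56, *Pla2g7*, which degrades platelet-activating factor, from 1.17 to -1.55, *Rgs5*, a pericyte marker, from 1.25 to -1.31 and *Tgfb3*, a TGF-beta ligand, from 1.06 to -1.06. Of the 9, *Ctss* and *Pla2g7* are on the myeloid marker list. The 26 genes slightly past normal included the basal keratin *Krt14*, which read 5.54, 8.27, 8.26 and 4.93, and the secreted chaperone *Clu*, which read 7.81, 10.07, 10.16 and 7.09. *Nppb*, a natriuretic peptide, stood at -0.60, *Cd24a*, a surface glycoprotein of epithelium, at -0.89, *Clec4d*, a myeloid lectin, at -0.80 and *Adam8*, a membrane-bound protease, at -0.64.

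Genes that were low in tumor fibroblasts with *Ets2* were fewer. *Il6*, the pleiotropic inflammatory cytokine, read 9.30 in normal, 9.57 in normal *Ets2* null, 7.67 in tumor and 8.19 in tumor *Ets2* null fibroblasts, so it was low with the oncogene with or without *Ets2*. *Cck*, the peptide hormone cholecystokinin, read 8.39, 9.84, 7.22 and 6.85, *Apln*, the angiogenic peptide apelin, read 8.55, 6.97, 7.27 and 7.40, and *Meox2*, a homeobox factor of mesoderm, read 6.74, 5.56, 5.73 and 5.62. *Apln* and *Meox2* were low on all 3 arrays other than normal. Those near normal in tumor fibroblasts without *Ets2* included *Dkk2*, a Wnt antagonist, at 7.21, 6.33, 4.90 and 7.23, *Aldh1a2*, which makes retinoic acid, at 6.45, 5.72, 4.63 and 6.79, and *Fgf7*, the keratinocyte growth factor of stroma, at 9.87, 9.80, 8.76 and 9.85. *Dkk2* and *Fgf7* thus stood at 0.02 and -0.02 from normal. *Scd2*, a fatty acid desaturase, went from -1.39 to 0.48. *Ccn3*, a matricellular growth regulator, lay past normal, at 8.90, 6.47, 7.30 and 10.24 and on both of its probe sets, and so did *S100a3*, described above. The 2 genes slightly past normal were *Olr1*, a receptor for oxidized lipoprotein, at 0.63 and *Ecrg4*, a secreted growth inhibitor, at 0.56.

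**Figure D3:**
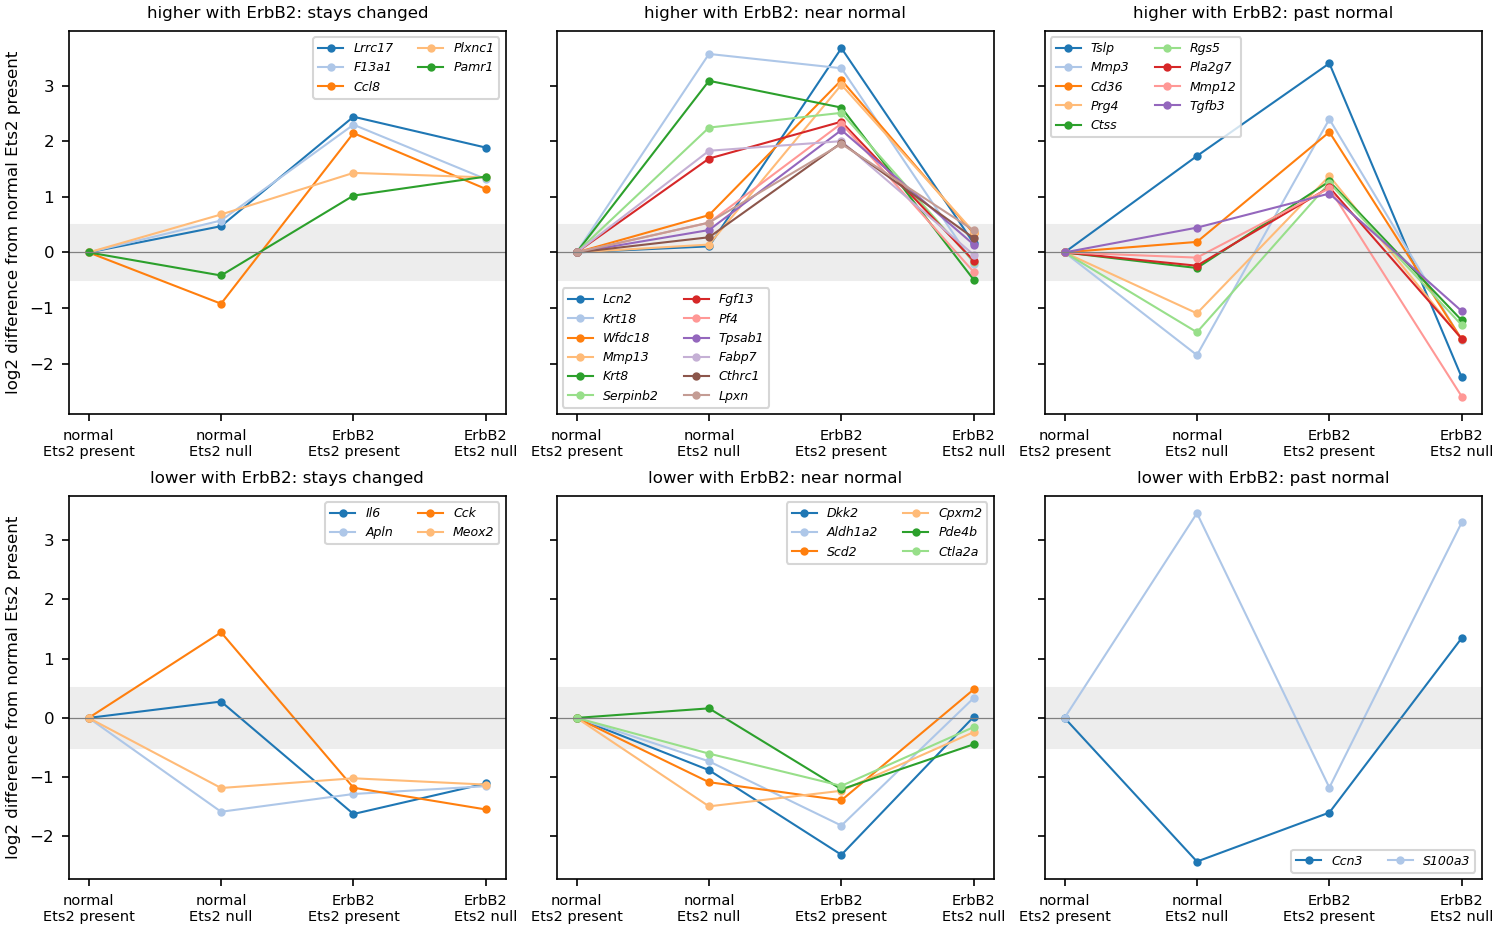
Log2 difference from the normal *Ets2* present array (y axis) on each of the 4 arrays (x axis) for tumor-stroma genes that stayed changed, were near normal or lay past normal in tumor *Ets2* null fibroblasts, 1 line per gene, with the near-normal panels limited to the genes that started farthest from normal and the band of 0.5 around normal in grey. *Tslp* goes from 3.40 in tumor fibroblasts to -2.25 without *Ets2*, while *Lrrc17* goes from 2.44 to 1.88.

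Some genes differed from normal with the oncogene and the deletion together and by less than 2-fold with the oncogene alone. At 4-fold on the brightest probe set these were *Gt(ROSA)26Sor* on the high side and *Cxcl12*, *Ccl6*, *Myl1*, *Clec7a* and *Mylpf* on the low side. *Ptn* and *Clec4n* also passed 4-fold, at 2.10 and -2.25, on a dimmer probe set, which stood at 0.23 and 0.55 in tumor fibroblasts with *Ets2*. At 2-fold on the brightest probe set they were 18 higher and 77 lower genes. Of the 18, 17 were within 0.5 of normal in tumor fibroblasts with *Ets2*, none was more than 2-fold higher in normal *Ets2* null fibroblasts, and 2, *Cyp7b1* at -1.81 and *Il33* at -1.10, were more than 2-fold lower there. Of the 77, 39 were within 0.5 of normal in tumor fibroblasts, 13 were also more than 2-fold lower in normal *Ets2* null fibroblasts, and 8 were more than 2-fold higher there. The 18 and 77 genes were picked to be within 2-fold in tumor fibroblasts with *Ets2*, where most genes lie within 0.5 of normal. The 17 and 39 therefore mark nothing particular to them. By size on these arrays, the 13 were below normal on both arrays without *Ets2*, and the 8 lay on opposite sides of normal there. A high reading on the shared normal array lowers both differences. An effect of the deletion on the 13 was therefore not tested. Muscle genes (*Myl1*, *Mylpf*, *Tnni1*, *Myh3*, *Myl4*) and endothelial genes (*Emcn*, *Plvap*, *Pecam1*) were among the 13. In tumor fibroblasts with *Ets2* these muscle genes stood at 0.13 to 0.73 from normal and these endothelial genes at -0.83 to -0.56. The others were *Cxcl12*, *Wfdc17*, *Sparcl1*, *Prelp* and *Txnip*. *Aldh1a1*, a retinaldehyde dehydrogenase, was one of the 8, at 8.77, 10.43, 8.78 and 7.18. *Efemp1*, the matrix protein fibulin-3, was in neither group, at 8.67 in normal and 7.08 in tumor *Ets2* null fibroblasts, and neither was *Tgm2*, tissue transglutaminase, at 12.20, 12.69, 12.21 and 10.79. On the high side *Hgf*, the hepatocyte growth factor of stroma, read 7.33, 7.79, 7.08 and 8.35, with 2 of its 3 probe sets more than 2-fold higher. *Aldh1a1*, *Efemp1* and *Tgm2* were chosen as examples after their values were seen.

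Gene groups were followed through 36 lists, each described by its median difference from normal and by its members past 2-fold, beside all genes with a median of 0.02. Of all 18194 genes, 9628 lay above normal and 8554 below it in tumor *Ets2* null fibroblasts. Of all genes, 2.69% were more than 0.5 above and 3.76% more than 0.5 below normal in tumor *Ets2* null fibroblasts. Enzymes of cholesterol and fatty acid synthesis formed the list with the highest median. Their median was 0.53 above normal in tumor *Ets2* null fibroblasts, with 32 of 34 genes above normal, 19 by more than 0.5 and none past 2-fold, and it was 0.34 with a gene's probe sets averaged. The same list had a median of -0.28 on the tumor array with *Ets2* and of -0.07 on the normal *Ets2* null array. *Acss2*, which makes acetyl-CoA from acetate, read 6.24, 6.41, 5.58 and 7.17, *Cyp51*, the lanosterol demethylase, read 9.50, 9.51, 9.05 and 10.33, and *Hmgcs1*, which makes HMG-CoA, read 10.95, 10.80, 10.73 and 11.71. *Acss2*, *Cyp51* and *Hmgcs1* were thus lowest in tumor fibroblasts with *Ets2* and highest without it. *Hsd17b7* and *Tm7sf2*, enzymes of late cholesterol synthesis, stood at 0.86 and 0.83 above normal. *Srebf1* and *Srebf2*, the transcription factors of the pathway, differed by 0.04 and 0.07 only.

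**Figure D4:**
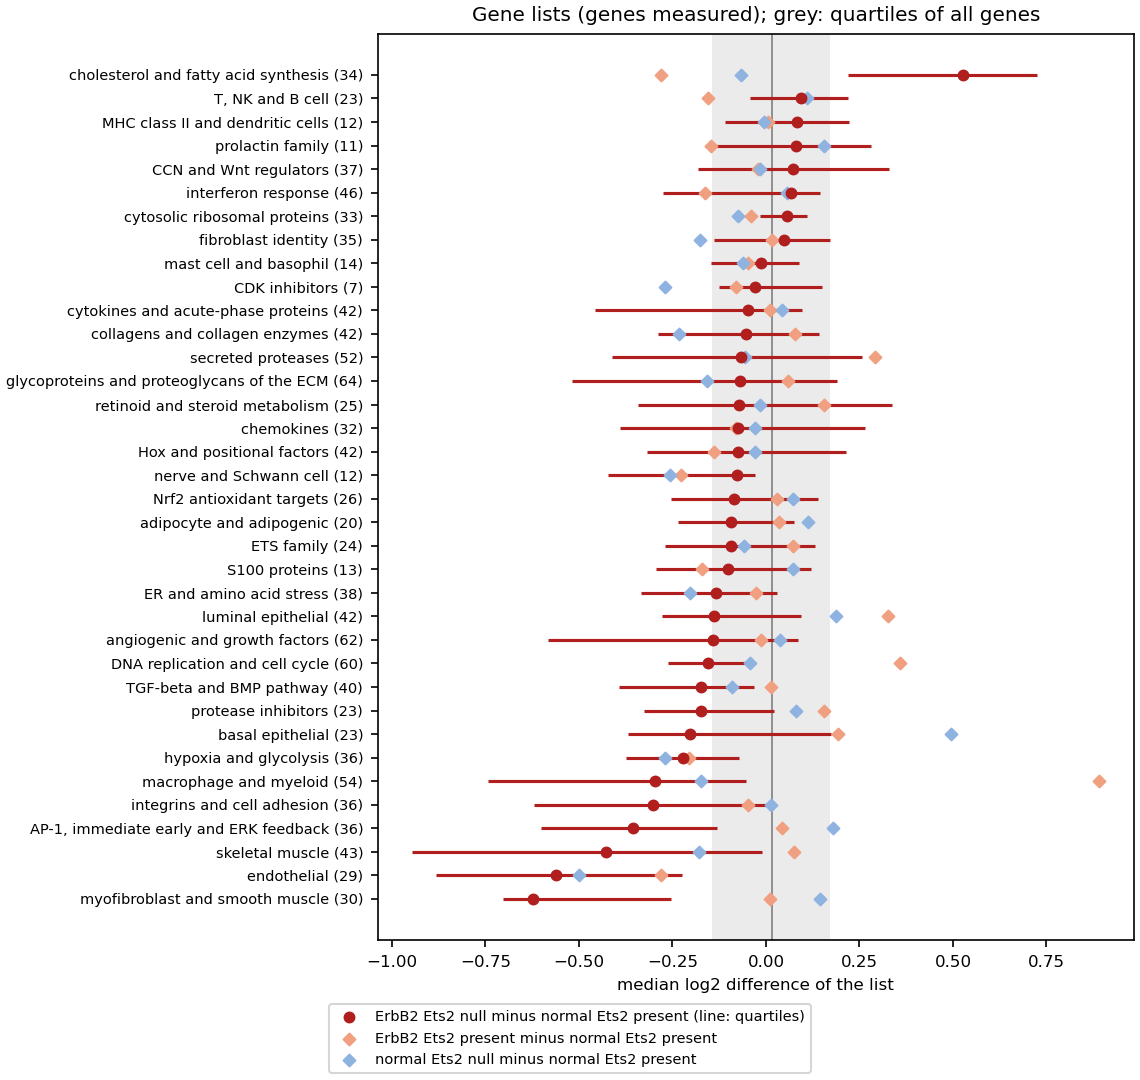
Median log2 difference from normal fibroblasts (x axis) of 36 gene lists in tumor *Ets2* null fibroblasts (red circles, with the quartiles of the list's genes as a line), tumor fibroblasts with *Ets2* (orange) and normal *Ets2* null fibroblasts (blue), with the quartiles of all genes in grey. Cholesterol and fatty acid synthesis is highest at 0.53, and myofibroblast and smooth muscle genes are lowest at -0.62.

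Contractile genes of myofibroblasts and smooth muscle formed the list with the lowest median, -0.62, against 0.01 for the tumor with *Ets2* and 0.14 for normal *Ets2* null fibroblasts. Of its 30 genes, 26 were below normal in tumor *Ets2* null fibroblasts, 16 by more than 0.5 and 3 by more than 2-fold. The 3 were *Mcam*, an adhesion molecule of pericytes, at -1.37, *Rgs5* at -1.31 and *Actg2*, enteric smooth muscle actin, at -1.03. *Actn1*, which crosslinks actin, read 12.58, 12.54, 12.51 and 11.74 and *Tpm1*, a tropomyosin, read 13.96, 13.93, 14.12 and 13.14, so they were level on 3 arrays and lower in tumor *Ets2* null fibroblasts. The myofibroblast marker *Acta2* read 14.24, 14.30, 14.24 and 13.99, and *Tagln*, a calponin-like partner of it, stood at -0.36. The skeletal muscle list had a median of -0.43, with 10 of 43 genes more than 2-fold lower and none higher, or of -0.83 over the members that reach log2 6 on a compared array, against 0.07 for the tumor with *Ets2* and -0.18 for normal *Ets2* null fibroblasts.

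Immediate early genes and feedback regulators of ERK signaling, the pathway that activates ETS2, were lower as a list. Their median was -0.36 in tumor *Ets2* null fibroblasts, with 29 of 36 genes below normal, against 0.04 for the tumor with *Ets2* and 0.18 for normal *Ets2* null fibroblasts. *Phlda1*, an early target of ERK, read 9.08, 9.59, 9.67 and 7.77 and was the one gene of the list past 2-fold. *Fos*, the AP-1 subunit, stood at -0.98, *Dusp6*, the phosphatase that switches ERK off, at -0.89 and *Maff*, a small Maf factor, at -0.84. Each of *Phlda1*, *Fos*, *Dusp6* and *Maff* was above normal on the other 2 arrays. Of the ETS family, whose median was -0.09, *Erg*, a factor of endothelium, stood at -0.75 and *Ets1*, the closest relative of *Ets2*, at -0.57. *Spi1*, the myeloid factor PU.1, stood at -0.41 and *Elf4* at -0.38.

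The integrin and adhesion list, of receptors by which cells hold the matrix and each other, had a median of -0.30, and of -0.09 with a gene's probe sets averaged. Of its 36 genes, 26 were below normal, 2 were more than 2-fold lower and none higher. *Itga5*, the fibronectin receptor subunit, read 10.05, 9.84, 9.93 and 8.71, although 1 of its 4 probe sets was past 2-fold. *Itga6*, a laminin receptor subunit, and *Icam1*, a ligand of leukocyte integrins, both stood at -0.99. The collagen list had a median of -0.05 with 2 of 42 genes more than 2-fold lower, both of basement membrane, and 1 higher. The higher one was *Col8a2*, a short-chain collagen, at 1.38 and under log2 6 on all arrays. *Col4a1* read 12.66, 12.77, 12.38 and 11.47 and *Col4a2* read 12.08, 12.15, 11.69 and 10.95. *P3h2*, which hydroxylates collagen IV, followed at -0.94 and *Col15a1*, another collagen of basement membrane zones, at -0.80. Among ECM glycoproteins and proteoglycans, with a median of -0.07 over 64 genes, *Efemp1*, *Prg4* and *Sparcl1*, a matricellular relative of SPARC, were lower, at -1.59, -1.56 and -1.46, and *Aspn* was higher at 1.73.

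The secreted proteases had a median of -0.07 in tumor *Ets2* null fibroblasts and of 0.29 in tumor fibroblasts with *Ets2*, and 6 of 52 were more than 2-fold below normal and none above. Named before were *Mmp12*, *Mmp3* and *Ctss*, and *Prss23*, a serine protease of fibroblasts, read 11.18, 11.07, 11.38 and 10.05. *Fap*, the fibroblast activation protein, ran the other way, at 6.83, 5.85, 7.62 and 7.79, and stood 0.96 above normal. *Mmp2*, a gelatinase of fibroblasts, stood at 0.47 and *Ctsk*, the collagen-degrading cathepsin K, at 0.60. *Mmp9*, a gelatinase and known ETS2 target, read 5.58, 5.96, 6.15 and 5.11, near or under log2 6 throughout. Of the protease inhibitors, with a median of -0.17, *Slpi* was more than 2-fold lower and *Serpinb1a*, at 1.09, more than 2-fold higher. *Serpina3n*, an acute-phase serpin, stood at -0.97, *Timp3*, a matrix-bound inhibitor of metalloproteinases, at -0.68 and *Serpinb6b*, an intracellular serpin, at -0.33.

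Of 62 angiogenic and growth factors, 2 were more than 2-fold higher and 6 lower, with a median of -0.14 and a mean of -0.23. *Vegfc*, the lymphatic growth factor, read 8.01, 8.83, 8.89 and 6.98, with all 3 of its probe sets more than 2-fold lower, so it was above normal on both other arrays and below it in tumor *Ets2* null fibroblasts. *Vegfa*, the main growth factor of blood vessels, differed less, at 9.56, 9.40, 9.19 and 9.31. *Kitl*, the ligand of KIT, stood at -1.43 and *Fgf18*, a fibroblast growth factor, at -1.10, while *Hgf* and *Ptn* were the higher ones. Among TGF-beta and BMP genes, with a median of -0.17, or of -0.27 over those that reach log2 6 on a compared array, *Bmp4*, a bone morphogenetic ligand, stood at -1.37, *Tgfb3* at -1.06, *Tgfb1* at -0.71 and *Tgfb2* at -0.70, and *Gdf10*, a BMP relative, at 0.86. *Wnt5a*, a ligand of noncanonical Wnt signaling, stood at -1.11, with 1 of its 4 probe sets past 2-fold. *Lgr5*, an R-spondin receptor, stood at 1.03 from a normal level of 5.80, although its dimmer probe set stood at -0.20.

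Of 32 chemokines, 4 were more than 2-fold lower and 1 higher in tumor *Ets2* null fibroblasts, with a median of -0.07. The low ones beside *Cxcl12* and *Ccl6* were *Ccl3*, a chemokine for macrophages, at 6.74, 7.10, 7.46 and 5.63, and *Cxcl5*, a chemokine for neutrophils, at 7.17, 7.71, 6.56 and 6.11. *Ccl8* was the high one, and *Ccl11*, the eosinophil chemokine eotaxin, stood at 0.77 and *Ccl7*, a chemokine for monocytes, at 0.55. *Ccl7*, *Ccl8* and *Ccl11* thus stood above normal while *Cxcl12*, *Ccl6* and *Ccl3* lay below it. Of 42 cytokines and acute-phase proteins, 3 were more than 2-fold lower, *Tslp*, *Il11*, a fibroblast cytokine of the IL-6 family, at -1.37, and *Il6*, and *Il33* was the one more than 2-fold higher. *Ptgs2*, the inducible cyclooxygenase, stood at -0.99.

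Genes of DNA replication and the cell cycle were 0.36 above normal in tumor fibroblasts with *Ets2* by their median and -0.15 in tumor *Ets2* null fibroblasts, with 48 of 60 below normal and none past 2-fold. *Ccnd1*, cyclin D1, stood at -0.99, *Ccne2*, cyclin E2, at -0.73 and *Mki67*, a marker of cycling cells, at -0.46. The interferon list had a median of 0.07 with *Irgm1* and *Gbp2*, interferon-induced GTPases, more than 2-fold lower, at -1.17 and -1.06. Glycolysis and hypoxia genes were below normal on all 3 other arrays, at -0.22 in tumor *Ets2* null, -0.21 in tumor and -0.27 in normal *Ets2* null fibroblasts.

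Among markers of cells other than fibroblasts, the myeloid and endothelial lists lay farthest from normal in tumor *Ets2* null fibroblasts, while those of dendritic cells, lymphocytes, mast cells, fat cells and nerve had medians of -0.09 to 0.09. The myeloid list was 0.89 above normal in tumor fibroblasts with *Ets2*, with 23 of 54 genes more than 2-fold higher, and -0.30 in tumor *Ets2* null fibroblasts, with 8 more than 2-fold lower. Its summed linear level was 26001 in normal, 21151 in normal *Ets2* null, 44611 in tumor and 18703 in tumor *Ets2* null fibroblasts, and 38 to 48 of 54 members were at log2 6 or more. Not every myeloid gene was low, as *C1qa*, a complement subunit of macrophages, read 8.38, 6.61, 9.49 and 8.99. Endothelial markers had a median of -0.56, with 5 of 29 more than 2-fold lower and 1, *Clec14a* at 1.39, higher, and members at log2 6 or more numbered 19 in normal, 12 in normal *Ets2* null, 15 in tumor and 12 in tumor *Ets2* null fibroblasts. *Cdh5* and *Pecam1*, defining adhesion molecules of endothelium, read 6.69 and 6.54 in normal fibroblasts and stood at -1.36 and -1.04 in tumor *Ets2* null fibroblasts. The dimmer probe set of *Cdh5* stood at -0.06 and that of *Clec14a* at 0.11, and *Clec14a* read 5.78 in normal fibroblasts. The luminal epithelial list summed to 2838, 5224, 4896 and 2540 on the arrays in the same order, with 13 to 19 of 42 members at log2 6 or more, and the basal list to 24363, 27717, 23582 and 20652. The basal list also holds *Acta2*, *Myh11* and *Cnn1*, contractile genes that myofibroblasts share. *Acta2*, whose levels are given above, makes up most of each basal sum, so these sums do not measure basal epithelial cells. Leaving the markers of other cell types, *Acta2* among them, out of the remaining lists moved the myofibroblast median to -0.64 and the integrin median to -0.28. The part of these cells in the low *Cxcl12*, *Ccl6*, protease, lectin and vessel genes was not tested. The fibroblast identity list had a median of 0.05 with no gene past 2-fold, and ribosomal protein genes had one of 0.06.

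**Figure D5:**
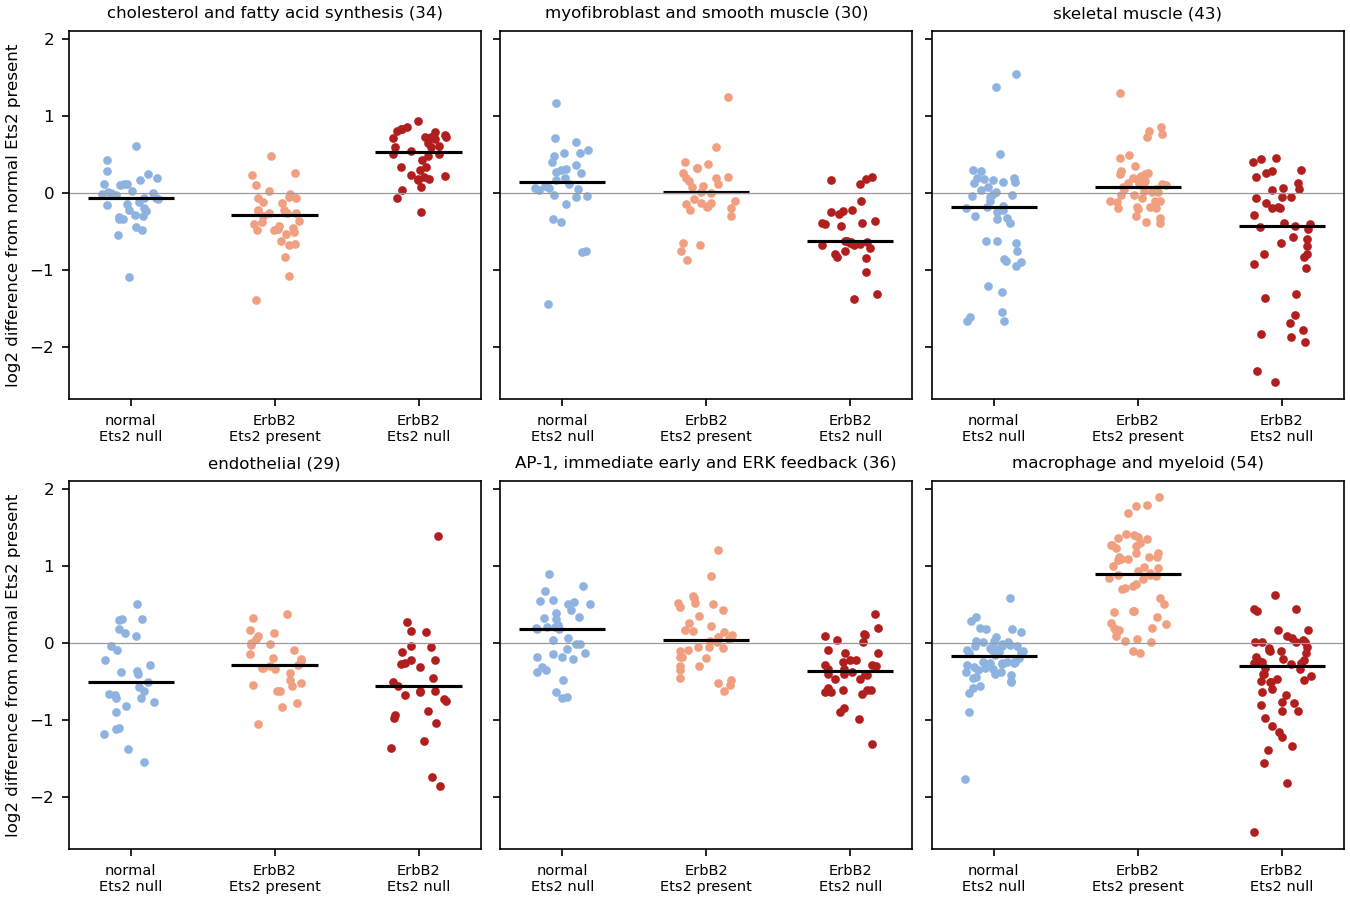
Log2 difference from normal fibroblasts (y axis) of each member of 6 gene lists on the other 3 arrays (x axis), 1 point per gene, with the list's median as a black bar. Medians in tumor *Ets2* null fibroblasts are 0.53 for cholesterol and fatty acid synthesis and -0.62 for myofibroblast and smooth muscle genes, and the myeloid list goes from 0.89 in tumor fibroblasts to -0.30 without *Ets2*.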

How the data were processed

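The 4 arrays of the experiment, 1 per genotype, were analysed as deposited. Per the labels they are of fibroblasts of the mammary gland. The authors deposited log2 values, 1 per probe set, made with RMA, which the submitters' processing notes name. RMA corrects background, gives the arrays almost equal distributions and summarises the probes of a probe set, which hides a shift that most genes share. Its software, version and probe definitions and a genome build were not found in the sources used here. The platform annotation named the probe sets, with symbols updated by gene ID. Of 45101 probe sets, 34958 had 1 symbol, 932 had several and 9211 were unnamed here, and only the first were used for genes. The number of arrays limits the precision. No depth exists for arrays.

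Differences were formed by subtraction with pandas 2.3.3 and numpy 2.4.6 under Python 3.11.15, with figures from matplotlib 3.10.9 and the loess alternative (span 0.4) from statsmodels 0.14.6. With 1 array per genotype no test was made. A gene was counted at 4-fold when any singly named probe set passed. All other values use a gene's brightest probe set by its mean of the 4 arrays. The 20 highest and 20 lowest genes needed log2 6 on 1 of the compared arrays. The members and lists were chosen with earlier results of these data known, and some lists follow groups the study names, so they are no independent evidence of a direction. Named genes were drawn from *Ets2*, the 20 highest and lowest and the 6 largest of each class. Further sources were the 8 largest in each direction under 2-fold with the oncogene alone and the 4 largest members of each list. Genes the study names for these cells were added, and not every gene of these sets is named here. Other list members and class members were named as examples after their values were seen. Promoter windows came from RefSeq. Alternatives were other thresholds (2-fold or 8-fold), centring on the median, quantile normalization, the loess correction, a floor at log2 6 on the compared arrays, leaving out probe sets named _x_at or _s_at, other choices of probe set, a start at 4-fold, a band of 0.25, list means and lists without markers of other cell types. The steps were tested on simulated data.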

Additional observations from a re-analysis of the deposited data

Results flagged for a closer look

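The following 11 genes lay more than 2-fold away from normal on opposite sides in tumor fibroblasts with and without *Ets2*, and stand here for that reason. With 1 array per genotype, the difference between the settings was not tested. *Tslp* was at -2.25 in tumor *Ets2* null fibroblasts and at 3.40 in tumor fibroblasts with *Ets2*, both as log2 differences from normal. *Mmp3* was at -1.57 and 2.40, *Cd36* at -1.57 and 2.16, *Prg4* at -1.56 and 1.37, and *Pla2g7* at -1.55 and 1.17. *Ctss* was at -1.22 and 1.28, *Rgs5* at -1.31 and 1.25, *Mmp12* at -2.59 and 1.15, and *Tgfb3* at -1.06 and 1.06. In the opposite direction, *S100a3* was at 3.30 and -1.18 and *Ccn3* at 1.35 and -1.60. Levels below log2 6 were part of the values of *Tslp*, *Prg4*, *Pla2g7*, *Rgs5* and *S100a3*, so their differences are not exact.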

How the results depend on the processing

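Of 96 recomputed counts, 79 stayed within 1.5 times and 17 moved, and of 278 recomputed list medians 274 shifted by no more than 0.229, the robust SD of the differences over genes, and 4 shifted by more. No median farther from 0 than that SD changed sign. Medians nearer 0 took the other sign for the ETS family without probe sets that may cross-hybridise, at 0.03, for fibroblast identity with probe sets averaged, at -0.04, for the interferon list as a mean, at -0.08, for mast cell and basophil genes without cross-hybridising probe sets, at 0.01, and for CDK inhibitors with quantile normalization, loess or the floor, at 0.03, 0.01 and 0.02. At 2-fold, 39 genes were higher and 131 lower, and 18 and 77 of them passed on the brightest probe set and were under 2-fold there with the oncogene alone. At 8-fold, 1 gene, *Cxcl12*, was lower, and it was under 2-fold with the oncogene alone. With a floor at log2 6 on the compared arrays, 55 of the higher tumor genes were near normal, and the medians were -0.34 for chemokines, -0.31 for cytokines and -0.83 for skeletal muscle. With probe sets averaged, 3 higher genes stayed changed and 7 lower genes were near normal. With a start at 4-fold, the higher genes gave 3 that stayed, 10 near normal and 3 past normal, and the lower genes 0, 1 and 0. With a band of 0.25, 43 higher and 7 lower genes were near normal. The mean of the S100 list was 0.16, where its median is -0.10. The share of 4-fold genes that were higher was 27.3%, and 25% under each scaling, and no scaling moved the median of all genes by more than 0.03. Leaving out markers of other cell types from the counts and dropping the floor from the classes, both chosen after seeing the data, moved no count by over 1.5 times. No paired analysis was possible because each genotype has 1 array and no replicate number. The precision is limited by the number of arrays, and levels under log2 6 were not taken as above background.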
